A study of Mus musculus with 16 samples.

Results

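The genes described here encode Wnt ligands, Frizzled receptors and their co-receptors, the secreted and membrane regulators of both, and the cytoplasmic and nuclear proteins that carry the signal. They were taken by gene symbol from the deposited mRNA table, and 60 of its 31053 genes matched. The mRNA of C2C12, a mouse myoblast line that fuses into myotubes once confluent, was sequenced at both stages, myoblast and myotube, in WT and in Fam134bKO cells, with 4 samples in each of the 4 groups. Fam134b encodes a receptor for the autophagy of the endoplasmic reticulum. The knockout cells were made with a lentivirus carrying Cas9 and guide RNAs and were selected with drugs, no single-cell cloning being named in the methods. What the virus and the selection did to these cells therefore cannot be told apart from the loss of Fam134b. All 4 groups were kept in the same growth medium with serum, and myotubes formed on their own at confluency. Genotype and stage were read from the sample titles, and labels call the samples biological replicates, while a separate genotype field reads unknown.

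Wnt proteins are lipid-modified secreted ligands that bind Frizzled receptors at the cell surface. With the co-receptors Lrp5 and Lrp6, a bound ligand recruits Dishevelled proteins, the complex of Axin and Apc stops marking beta-catenin for destruction, and beta-catenin moves to the nucleus to act with factors of the TCF and LEF family. With Ror1, Ror2 or Ryk as partners, the same ligands act on cell polarity and calcium without beta-catenin. Secreted Sfrp, Dkk and Wif1 proteins oppose the ligands, R-spondins prolong signalling by removing the ubiquitin ligases Znrf3 and Rnf43, and in muscle the pathway is known from satellite cell expansion, myoblast commitment and fusion.

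The promoters of Wnt4, Wnt9a, Lef1 and Tcf7l1 are shown because these members were called between the genotypes in myoblasts and the RefSeq promoter table holds an entry for each. That table, on GRCm38.p6, had entries for 41 of the 60 members, each with 250 bases before and 50 after a transcript start. The stretch printed is the part of each entry that lies before every transcript start annotated by RefSeq or GENCODE M21, read 5′ to 3′ on the strand of the gene, with capitals marking an E-box. The E-box, written CANNTG, is a broad motif that many factors recognise, myogenic ones such as MyoD and myogenin among them. Both strands were searched. Wnt4 is shown at chr4:137277385-137277488 (plus strand), Wnt9a at chr11:59306680-59306848 (plus strand), Lef1 at chr3:131110047-131110296 (plus strand) and Tcf7l1 at chr6:72789255-72789295 (minus strand).
Wnt4: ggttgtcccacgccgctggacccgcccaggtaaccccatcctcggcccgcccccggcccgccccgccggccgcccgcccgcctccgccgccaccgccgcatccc
Wnt9a: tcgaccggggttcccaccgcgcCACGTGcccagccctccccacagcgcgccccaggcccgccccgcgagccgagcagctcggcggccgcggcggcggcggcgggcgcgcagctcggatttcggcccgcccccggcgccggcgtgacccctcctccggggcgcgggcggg
Lef1: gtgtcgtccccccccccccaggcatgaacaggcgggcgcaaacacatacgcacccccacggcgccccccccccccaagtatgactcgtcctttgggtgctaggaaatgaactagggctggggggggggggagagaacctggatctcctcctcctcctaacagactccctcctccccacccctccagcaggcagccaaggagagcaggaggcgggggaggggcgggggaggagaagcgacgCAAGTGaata
Tcf7l1: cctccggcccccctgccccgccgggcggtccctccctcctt
The stretches of Wnt4, Wnt9a and Tcf7l1 were rich in G and C, at 83.7%, 84.6% and 82.9%, and that of Lef1 had 66.4%. Wnt9a held 1 E-box, CACGTG, 228 bases before its RefSeq start, and Lef1 held 1, CAAGTG, 10 bases before its start. In the whole windows of 300 bases, the E-box was in those of Wnt4, Wnt9a and Lef1 and in 72.1% of the windows of 27025 genes. The core of the TCF and LEF motif, CTTTGA or CTTTGT on either strand, was in none of these 4 windows as CTTTGA, which 16.2% of all windows held, and in that of Tcf7l1 as CTTTGT, which 18.7% held. A match is a stretch of letters and not a bound site.

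Reads on genes numbered 1484750 to 3287461 per library, and a count of 3 reads, taken as the floor of detection, stood for a normalized count of 2.49 to 5.99. Replicates 2 and 4 of Fam134bKO myotubes, with 1790524 and 1484750 reads, were the shallowest, and they lay farthest from their group mean across all genes. Fam134b itself had mean normalized counts of 207 ± 42.0 (SD, n = 4) in WT myoblasts, 232 ± 61.6 in WT myotubes, 27.5 ± 5.49 in Fam134bKO myoblasts and 41.8 ± 14.0 in Fam134bKO myotubes. The summed level of 10 muscle genes had medians of 2068, 19656, 271 and 9793 in the same order, and Fam134bKO myoblasts had no read of Myog or Myh8, which WT myoblasts already expressed. Of markers of other cells, 2 of 6 endothelial genes had reads in WT myoblasts and 1 of 6 in each other group. Of 6 macrophage genes, 3 had reads in each group but WT myotubes, where 4 had, and Ptprc and Adgre1 had none in any. Of 6 adipocyte genes 2 or 3 had reads, and their sums had medians of 75.2 in WT and 76.6 in Fam134bKO myoblasts. Among them Pparg had 18.2 in Fam134bKO and 4.28 in WT myoblasts. It reached a normalized count of 10, the minimum for testing, in Fam134bKO myoblasts alone, so its difference is a description and not a test. Of 6 osteoblast genes 1 to 4 had reads, with Runx2 at 129 in WT myoblasts. The 6 fibroblast genes summed to a median of 199 in Fam134bKO myotubes against 111 in WT myotubes. Of the 3 tested, Dcn alone was called between them (144 against 53.1, limma adjusted p = 0.0265), with Twist2 at 48.6 against 44. The 5 proliferation genes summed to medians of 3538, 1952, 2977 and 1044 in the order of the groups above.

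Of the 60 members, 28 passed the filter on low values, which asked for 4 or more samples with a normalized count of 10 or higher, 19 had reads but fell below it, and 13 had no read in any library. The detected pathway was uneven across its roles. Of the Wnt ligands, 6 of 19 passed, namely Wnt4, Wnt6, Wnt7b, Wnt9a, Wnt10a and Wnt10b, and 7 had no read, namely Wnt3a, Wnt7a, Wnt8a, Wnt8b, Wnt9b, Wnt11 and Wnt16. Of the Frizzled receptors and co-receptors, 10 of 15 passed and Fzd10 had no read. Of the secreted regulators, Dkk3 alone of 13 passed, and Dkk1, Dkk4, Rspo4 and Sfrp1 had no read. Of the cytoplasmic transducers, 6 of 7 passed, with Axin2 below the filter, and all 4 of the nuclear factors Tcf7, Tcf7l1, Tcf7l2 and Lef1 passed. Znrf3 passed and Rnf43 had no read. Fzd8 reached the minimum in the 4 WT myotube samples and in no other, so it passed only through the group where it is high. Its values are given as a description, and its calls are not read as a test. In these libraries no read allows up to 3 reads, so a gene without reads is below the floor and not shown to be silent.

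On differentiation of WT cells, 6 of 27 tested members rose and none fell, Fzd8 being left aside because WT myotubes alone brought it past the filter. In bulk RNA such as this, fewer cells of a kind and less RNA per cell cannot be told apart. The risers were Fzd1, Fzd2, Fzd4, the co-receptor Lrp6, and the ligands Wnt9a and Wnt10a. Calls are those of limma's test at a Benjamini-Hochberg adjusted p under 0.05. With Fzd8 counted, 7 of 28 members were called, or 25.0%. Of all 10767 tested genes 23.0% were called, 13.8% higher and 9.16% lower. The 4 samples of each group did not overlap for 10 of the 28 members, Fzd8 among them, against 28.0% of all genes. The median log2 fold change was 0.26 over the 28 members and -0.01 over all genes. Without WT myotube replicate 1 only 1 of the 28, Fzd2, was still called. The count ran from 1 to 9 over libraries left out in turn.

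In Fam134bKO cells, 9 members rose on differentiation and 1, Wnt4, fell. The risers were the ligands Wnt7b, Wnt9a and Wnt10a, the receptor Fzd2, the secreted Dkk3, the transducers Ctnnb1 and Dvl1, and the nuclear factors Lef1 and Tcf7l1. That is 35.7% of members, beside 33.4% of all genes, of which 17.3% were higher and 16.1% lower, and the groups did not overlap for 7 members beside 27.4% of all genes. The median log2 fold change was 0.42 over members and -0.02 over all genes. Of the 10 Frizzled receptors and co-receptors, 1 was called here and 5 in WT cells, Fzd8 among the 5. In none of these 10 did the change on differentiation pass the test of a difference between genotypes.

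Between the genotypes, 5 members were called in myoblasts, with Wnt4 and Tcf7l1 higher and Wnt7b, Wnt9a and Lef1 lower in Fam134bKO cells. This was 17.9% of members beside 15.8% of all genes, 7.26% higher and 8.50% lower, and 8 members did not overlap beside 26.8% of all genes. In myotubes 6 of 27 members were called with Fzd8 left aside. Wnt10a, Tcf7l1 and Dkk3 were higher and Wnt7b, Fzd3 and Fzd4 lower in Fam134bKO cells. With Fzd8 counted, 7 of 28 were called, or 25.0% beside 23.4% of all genes, 9.74% higher and 13.7% lower. Again 8 members did not overlap, Fzd8 among them, beside 19.4% of all genes. The genotype comparisons share samples with the differentiation comparisons and are not independent of them. The muscle genes differed between the genotypes in the same samples, 8 of the 10 being lower in Fam134bKO myoblasts and 5 in Fam134bKO myotubes. Their part in the results on the members was not tested, nor was that of the proliferation genes, of which 3 of 5 were lower in Fam134bKO myotubes.

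The change on differentiation itself differed between the genotypes for 4 members, Wnt4, Wnt7b, Lef1 and Tcf7l1. They were 14.3% of members, where 3.45% of all genes passed this interaction, 1.97% with a more positive and 1.48% with a more negative change in Fam134bKO cells. Of the 4, Wnt4 alone had the more negative change. Depending on which library was left out, 1 to 3 members passed, and Wnt4 was among them each time.

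**Figure D1:**
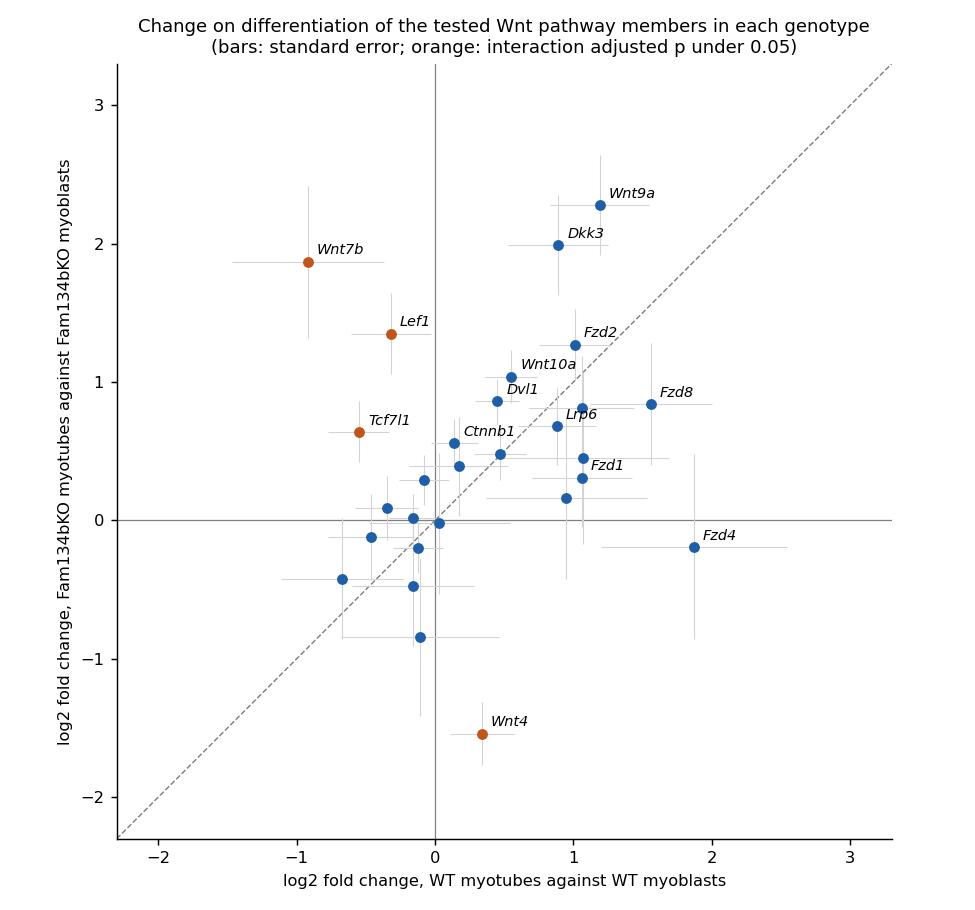
Log2 fold change on differentiation of the 28 tested members in WT cells (horizontal axis) and in Fam134bKO cells (vertical axis), on the log2(normalized count + 1) scale, with standard errors as bars, the line of equal change dashed, and members called in either genotype named. The 4 orange points, Wnt4, Wnt7b, Lef1 and Tcf7l1, passed the interaction and lie off the line, while Fzd2 and Wnt10a lie near it.

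Wnt4 was the ligand with the clearest genotype difference. Wnt4 (chr4:137277489-137299726, GRCm38), which acts through both beta-catenin and polarity branches and is known from muscle, kidney and gonad development, had normalized counts of 21.2, 19.3, 26.0 and 23.2 in WT myoblasts and 34.5, 26.1, 30.7 and 23.8 in WT myotubes. It stood at 120, 129, 110 and 124 in Fam134bKO myoblasts and at 35.8, 32.1, 37.8 and 63.9 in Fam134bKO myotubes. All Fam134bKO myoblasts were thus above every other sample, and the 2 WT stages overlapped. Wnt4 was 5.22-fold higher in Fam134bKO than in WT myoblasts (log2 fold change 2.38 ± 0.23 (SE), adjusted p = 1.32e-07) and fell 2.90-fold on differentiation of Fam134bKO cells (-1.54 ± 0.23, adjusted p = 3.51e-05). In WT cells the change was 0.34 ± 0.23 (adjusted p = 0.317), and the interaction was -1.88 ± 0.33 (adjusted p = 0.00164). After differentiation the genotypes overlapped (0.51 ± 0.23, adjusted p = 0.126).

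Wnt7b showed the largest fold between genotypes among the tested members, in the other direction. Wnt7b (chr15:85535437-85582473), a ligand known from lung, bone and vessel development, had 53.5, 56.9, 58.0 and 41.0 in WT myoblasts and 26.8, 35.1, 26.0 and 21.8 in WT myotubes. Fam134bKO myoblasts had 2.62, 1.66, 4.34 and 0, which is at most 5 reads per library, and Fam134bKO myotubes had 9.68, 30.6, 8.10 and 2.0. The myoblasts of the 2 genotypes were far apart, at a log2 fold change of -4.30 ± 0.55 (adjusted p = 4.68e-06), and in myotubes replicate 2 of Fam134bKO lay among the WT samples. There the difference was -1.52 ± 0.55 (adjusted p = 0.0487), a call lost without any 1 of 7 of the 8 libraries (-2.08 to -0.95, all but Fam134bKO myotube replicate 2) and under 6 of 10 other settings (adjusted p up to 0.0933). The rise in Fam134bKO cells, 1.87 ± 0.55 (adjusted p = 0.0118), was lost without Fam134bKO myoblast replicate 4 and in a fit of only the samples compared (adjusted p = 0.0776), and the WT change was -0.92 ± 0.55 (adjusted p = 0.241) with no overlap between the stages. The interaction of 2.79 ± 0.77 (adjusted p = 0.0489) was lost in 14 of 16 fits that left out a library (2.22 to 3.36, all but Fam134bKO myoblast replicate 3 and Fam134bKO myotube replicate 4) and under 3 of 9 other settings. Of the exonic bases of Wnt7b, 6.61% also lie in the antisense gene AU022754, whose reads cannot be told apart without strand.

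Wnt9a rose on differentiation in both genotypes from unequal levels. Wnt9a (chr11:59306928-59333552), known from joint and skeletal development, had 23.1, 9.64, 16 and 13.4 in WT myoblasts and 38.0, 26.1, 29.7 and 51.5 in WT myotubes. Fam134bKO myoblasts had 2.62, 4.98, 2.6 and 3.34 and Fam134bKO myotubes 23.2, 11.7, 21.6 and 26.0. No sample of either stage overlapped the other within a genotype, and Fam134bKO samples were below WT samples at both stages. The rise was 1.19 ± 0.36 in WT cells (adjusted p = 0.0197) and 2.28 ± 0.36 in Fam134bKO cells (adjusted p = 4.62e-05). In myoblasts Fam134bKO was lower by -1.88 ± 0.36 (adjusted p = 5.81e-04), and in myotubes the difference of -0.80 ± 0.36 did not pass (adjusted p = 0.112). The WT call was lost without WT myoblast replicate 2 or 4 or WT myotube replicate 1 or 4 (lowest value 1.00, highest adjusted p 0.0804), and the interaction was 1.09 ± 0.50 (adjusted p = 0.266).

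Wnt10a also rose in both genotypes. Wnt10a (chr1:74791516-74804179), a ligand that acts mainly through beta-catenin and is known from teeth, skin and the restraint of fat cell formation, had 165, 106, 149 and 135 in WT myoblasts and 194, 200, 219 and 192 in WT myotubes. It had 220, 160, 259 and 174 in Fam134bKO myoblasts and 402, 544, 327 and 404 in Fam134bKO myotubes. Every Fam134bKO myotube sample was above every other sample. The rise was 0.55 ± 0.19 in WT cells (adjusted p = 0.0388), a call lost in 7 of 8 fits without a library (0.43 to 0.64, all but WT myoblast replicate 1), and 1.04 ± 0.19 in Fam134bKO cells (adjusted p = 2.08e-04). Fam134bKO was higher by 1.03 ± 0.19 in myotubes (adjusted p = 4.14e-04) and by a value of 0.54 ± 0.19 that did not pass in myoblasts (adjusted p = 0.056).

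The remaining ligands that could be tested, Wnt6 and Wnt10b, were not called in any comparison. Wnt10b, the close paralog of Wnt10a, had 6.75 to 24.0 in WT myoblasts and 26.6 to 46.4 in Fam134bKO myoblasts without overlap (1.27 ± 0.44, adjusted p = 0.0558). Wnt6 ranged from 0.9 to 11.2 in WT myotubes and from 11.7 to 17.5 in Fam134bKO myotubes, also without overlap (1.32 ± 0.51, adjusted p = 0.0671). Their 95% intervals of the myotube difference were wide, 0.25 to 2.39 for Wnt6 and 0.04 to 1.88 for Wnt10b on the log2 scale.

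**Figure D2:**
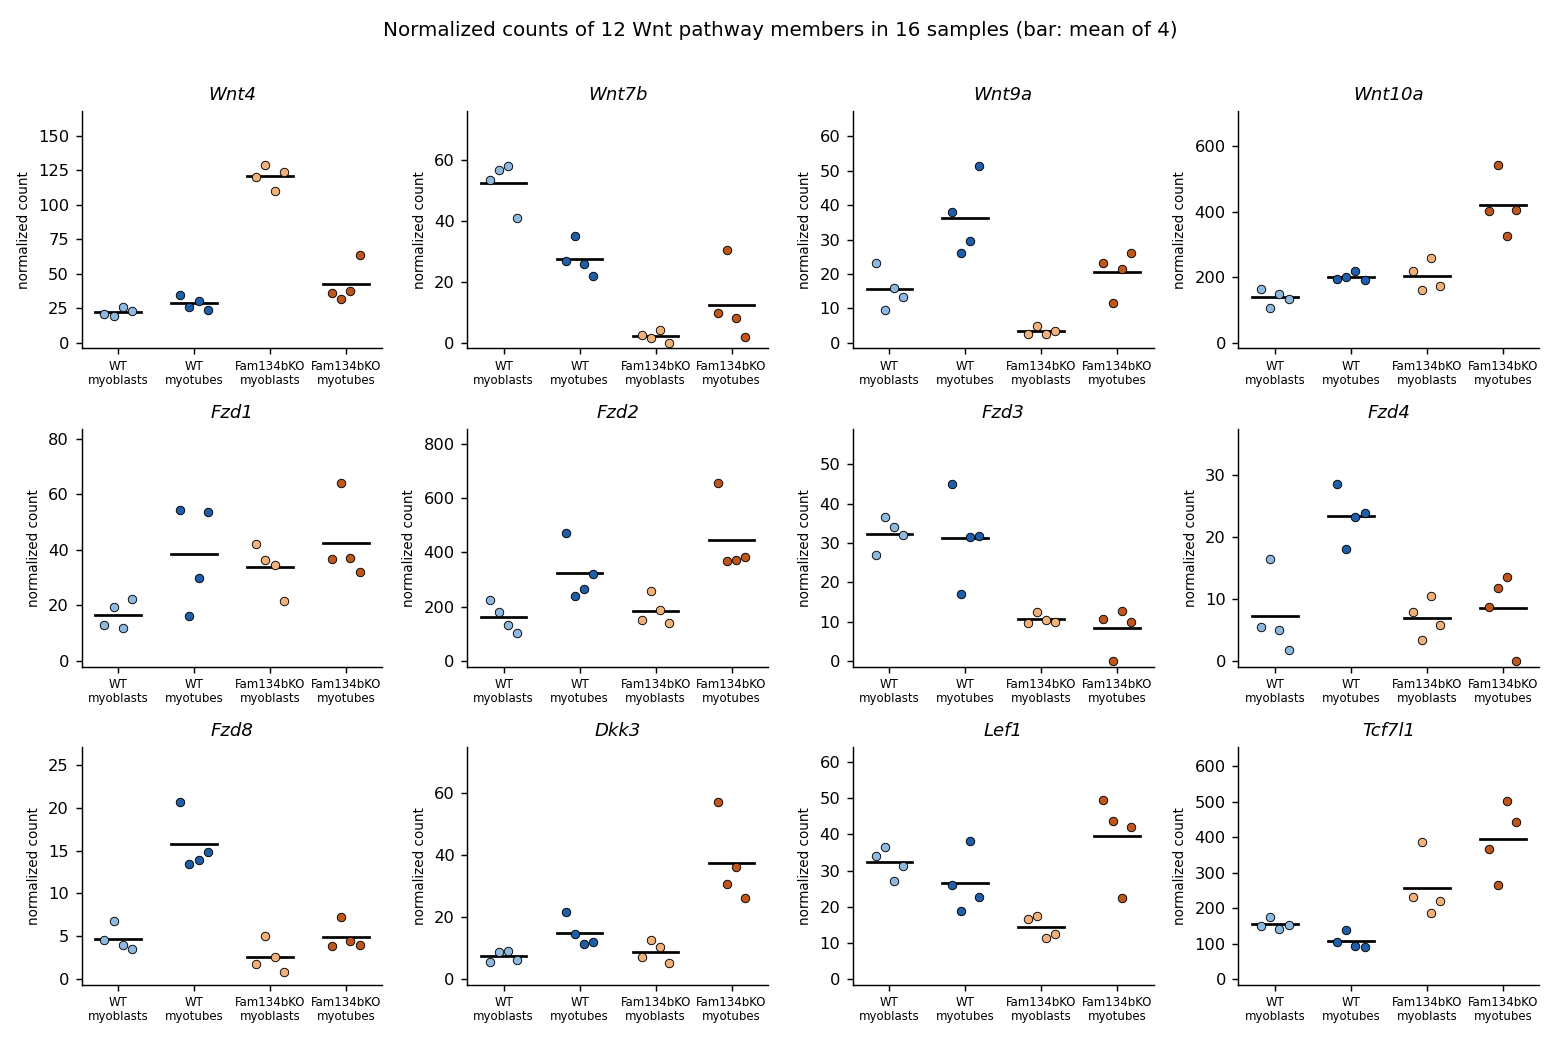
Normalized counts (vertical axes, linear) of 12 members in the 16 samples, in 4 groups of 4, each point 1 sample and each bar the mean of 4. Wnt4 is high in the 4 Fam134bKO myoblast samples alone (110 to 129), Wnt7b is near 0 there (0 to 4.34), and Fzd4 and Fzd8 are highest in WT myotubes.

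Among the receptors, Fzd2 rose most firmly on differentiation and did so in both genotypes. Fzd2, a Frizzled known to serve both Wnt5a-type and beta-catenin signalling, had 225, 180, 134 and 104 in WT myoblasts and 472, 241, 264 and 319 in WT myotubes, with 150, 258, 186 and 141 in Fam134bKO myoblasts and 656, 368, 373 and 382 in Fam134bKO myotubes. Myotubes were above myoblasts in every sample of each genotype. The rise was 1.01 ± 0.26 in WT cells (adjusted p = 0.00786) and 1.27 ± 0.26 in Fam134bKO cells (adjusted p = 8.05e-04), and the interval of their difference ran from -0.51 to 1.02.

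Fzd4 and Fzd8 had their highest values in WT myotubes. Fzd8, a receptor of beta-catenin signalling, had 4.61, 6.75, 4.00 and 3.56 in WT myoblasts, 20.7, 13.5, 13.9 and 14.9 in WT myotubes, 1.75, 4.98, 2.6 and 0.834 in Fam134bKO myoblasts and 3.87, 7.30, 4.50 and 4.00 in Fam134bKO myotubes. WT myotubes lay above all 12 other samples. As these 4 samples alone brought Fzd8 past the filter, its log2 fold changes of 1.56 ± 0.44 in WT cells, 0.84 ± 0.44 in Fam134bKO cells and -1.52 ± 0.44 between the genotypes in myotubes are descriptions.

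Fzd4, the receptor of norrin as well as of Wnts, had 5.54, 16.4, 5.00 and 1.78 in WT myoblasts, 28.5, 18, 23.2 and 23.8 in WT myotubes, 7.87, 3.32, 10.4 and 5.84 in Fam134bKO myoblasts and 8.71, 11.7, 13.5 and 0 in Fam134bKO myotubes. Its WT myotubes too lay above every other sample, yet both calls were near the threshold. The WT rise was 1.87 ± 0.67 (adjusted p = 0.049) and the difference in myotubes was -1.89 ± 0.67 (adjusted p = 0.0456). The first was lost in 7 of 8 fits without a library (1.45 to 2.33, all but WT myoblast replicate 2) and under 4 of 9 other settings. The second was lost without any WT myotube replicate or without Fam134bKO myotube replicate 4, the shallow library at 0, where it was -0.99 (adjusted p = 0.161), and under 7 of 10 other settings.

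Fzd3 was the receptor lower in Fam134bKO cells at both stages by its values. Fzd3, known from axon guidance and planar polarity, had 26.8, 36.6, 34.0 and 32.1 in WT myoblasts, 44.9, 17.1, 31.6 and 31.7 in WT myotubes, 9.62, 12.5, 10.4 and 10.0 in Fam134bKO myoblasts and 10.6, 0, 12.6 and 9.99 in Fam134bKO myotubes. All 8 Fam134bKO samples were below all 8 WT samples. The difference passed in myotubes (-2.25 ± 0.57, adjusted p = 0.0066) and not in myoblasts (-1.52 ± 0.57, adjusted p = 0.0778). Fam134bKO myotube replicate 2, a shallow library, had no read, and without it the difference in myotubes was -1.35 (adjusted p = 0.00301). Differentiation changed it by -0.11 ± 0.57 in WT and -0.84 ± 0.57 in Fam134bKO cells, and neither passed.

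Fzd1 and Lrp6 completed the WT risers. Fzd1 had 12.9, 19.3, 12 and 22.3 in WT myoblasts, 54.4, 16.2, 29.7 and 53.5 in WT myotubes, 42.0, 36.5, 34.7 and 21.7 in Fam134bKO myoblasts and 36.8, 64.2, 36.9 and 32.0 in Fam134bKO myotubes. Its WT stages overlapped through WT myotube replicate 2, and the rise of 1.06 ± 0.36 (adjusted p = 0.0371) was lost without WT myoblast replicate 1 or 3 or WT myotube replicate 1, 3 or 4 (0.84 to 1.40 over all 8 fits). Lrp6, the co-receptor that is phosphorylated when a Wnt binds, had means of 34.4 ± 8.28 and 64.5 ± 16.4 in WT myoblasts and myotubes and 52.9 ± 12.2 and 87.6 ± 28.8 in the Fam134bKO groups (SD, n = 4). Its WT rise was 0.88 ± 0.28 (adjusted p = 0.0265), lost in 6 of 8 fits without a library (0.76 to 1.06, all but WT myoblast replicate 2 and WT myotube replicate 2), and its Fam134bKO change was 0.68 ± 0.28 (adjusted p = 0.0622).

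The other tested receptors, Fzd6, Fzd7, Lrp5 and Ryk, were not called in any comparison. Fzd6, which opposes beta-catenin signalling in some cells, ranged from 12 to 50.1 over the 16 samples and Ryk, a Wnt-binding pseudokinase, from 208 to 403. Fzd7, the receptor known from satellite cells, spanned 8.10 to 44.9 within WT myotubes, and Lrp5 spanned 4.50 to 25.0 there. Their intervals for the WT change were wide, -0.26 to 2.16 for Fzd7 and -0.22 to 2.36 for Lrp5, so a rise as large as that of Fzd2 was within both. Znrf3, the ligase that removes Frizzled proteins from the surface, was also not called, with a WT change of 1.06 ± 0.38 (adjusted p = 0.0512).

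Dkk3, a secreted protein of the Dickkopf family that, unlike its relatives, does not bind Lrp6 strongly, was the 1 secreted regulator that could be tested. It had 5.54, 8.68, 9.01 and 6.24 in WT myoblasts, 21.6, 14.4, 11.2 and 11.9 in WT myotubes, 7, 12.5, 10.4 and 5.01 in Fam134bKO myoblasts and 57.1, 30.6, 36.0 and 26.0 in Fam134bKO myotubes. Fam134bKO myotubes were above every other sample, and within each genotype the stages did not overlap. The rise was 1.99 ± 0.36 in Fam134bKO cells (adjusted p = 2.07e-04) and 0.89 ± 0.36 in WT cells (adjusted p = 0.0764). In myotubes Fam134bKO was higher by 1.27 ± 0.36 (adjusted p = 0.0135), in myoblasts the difference was 0.17 ± 0.36, and the interaction of 1.10 ± 0.51 did not pass (adjusted p = 0.262).

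Of the cytoplasmic transducers, 2 were called, both on differentiation of Fam134bKO cells. Dvl1, a Dishevelled protein that couples Frizzled to the rest of the pathway, had means of 228 ± 11.7, 312 ± 28.9, 184 ± 21.8 and 339 ± 87.7 in WT myoblasts, WT myotubes, Fam134bKO myoblasts and Fam134bKO myotubes, and rose by 0.86 ± 0.16 in Fam134bKO cells (adjusted p = 4.12e-04) beside 0.45 ± 0.16 in WT cells (adjusted p = 0.0542). Ctnnb1, which encodes beta-catenin, had means of 1310 ± 256, 1426 ± 144, 1147 ± 270 and 1670 ± 164 in the same order. It rose by 0.56 ± 0.17 in Fam134bKO cells (adjusted p = 0.0159), lost without Fam134bKO myoblast replicate 1 or 4 (lowest value 0.48), and 14.6% of its exonic bases lie in the antisense gene Ulk4. Apc, Axin1, Dvl2 and Dvl3 were not called in any comparison, with ranges over all samples of 70.04 to 133, 68.2 to 155, 40.9 to 178 and 58.1 to 127. Dvl2 had 40.9 in Fam134bKO myotube replicate 2, a shallow library, and without it the difference between myotubes went from 0.49 to 0.96 and was called (adjusted p = 0.0017). The genotype difference of Apc was bounded within -0.51 to 0.23 in myoblasts and -0.59 to 0.16 in myotubes.

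The nuclear factors Lef1 and Tcf7l1 both changed between genotypes. Lef1 (chr3:131110471-131224356), an activator of Wnt target genes and itself a target, had 34.1, 36.6, 27 and 31.2 in WT myoblasts, 25.9, 18.9, 38.1 and 22.8 in WT myotubes, 16.6, 17.4, 11.3 and 12.5 in Fam134bKO myoblasts and 49.4, 43.8, 22.5 and 42.0 in Fam134bKO myotubes. Fam134bKO myoblasts were the lowest group, below every other sample. Lef1 was lower there than in WT myoblasts by -1.12 ± 0.29 (adjusted p = 0.0104) and rose by 1.35 ± 0.29 on differentiation of Fam134bKO cells (adjusted p = 0.00131), against -0.32 ± 0.29 in WT cells (adjusted p = 0.47). The interaction of 1.67 ± 0.41 (adjusted p = 0.0272) was lost without WT myoblast replicate 1 or 2, WT myotube replicate 4 or Fam134bKO myoblast replicate 3 or 4 (1.53 to 1.91 over 16 fits, highest adjusted p 0.0659). The antisense gene Gm43352 covers 13.7% of its exonic bases.

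Tcf7l1 (chr6:72626378-72789254), also called Tcf3 and known as a repressor of Wnt targets, had 150, 176, 142 and 152 in WT myoblasts, 105, 137, 92.9 and 91.1 in WT myotubes, 231, 388, 185 and 220 in Fam134bKO myoblasts and 366, 264, 503 and 442 in Fam134bKO myotubes. Fam134bKO samples lay above WT samples at both stages. The difference was 1.85 ± 0.22 in myotubes, a 3.62-fold higher level (adjusted p = 5.09e-06), and 0.67 ± 0.22 in myoblasts (adjusted p = 0.0449). Differentiation moved it by 0.64 ± 0.22 in Fam134bKO cells (adjusted p = 0.0314) and by -0.55 ± 0.22 in WT cells (adjusted p = 0.0772, no overlap), and the interaction was 1.19 ± 0.31 (adjusted p = 0.0384). Its difference in myotubes held without any 1 library (1.72 to 2.03), while the calls in myoblasts, on differentiation of Fam134bKO cells and in the interaction were lost in 7 of 8 (all but Fam134bKO myoblast replicate 3), 5 of 8 (Fam134bKO myoblast replicate 1, 3 or 4 and Fam134bKO myotube replicate 3 or 4) and 12 of 16 such fits (all but WT myotube replicate 2, Fam134bKO myoblast replicate 2 and Fam134bKO myotube replicates 1 and 2), with lowest values of 0.45, 0.50 and 1.05. The antisense gene Gm15401 covers 4.56% of its exonic bases.

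Tcf7 and Tcf7l2, the other factors of the family, were not called. Tcf7 had means of 31.8 ± 5.57, 20.2 ± 6.61, 19.97 ± 10.0 and 15.9 ± 9.40 across the 4 groups in the order above. Tcf7l2 had 196 ± 23.2, 175 ± 16.8, 214 ± 34.8 and 220 ± 50.2, and its genotype difference lay within -0.24 to 0.48 in myoblasts and -0.05 to 0.67 in myotubes.

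**Figure D3:**
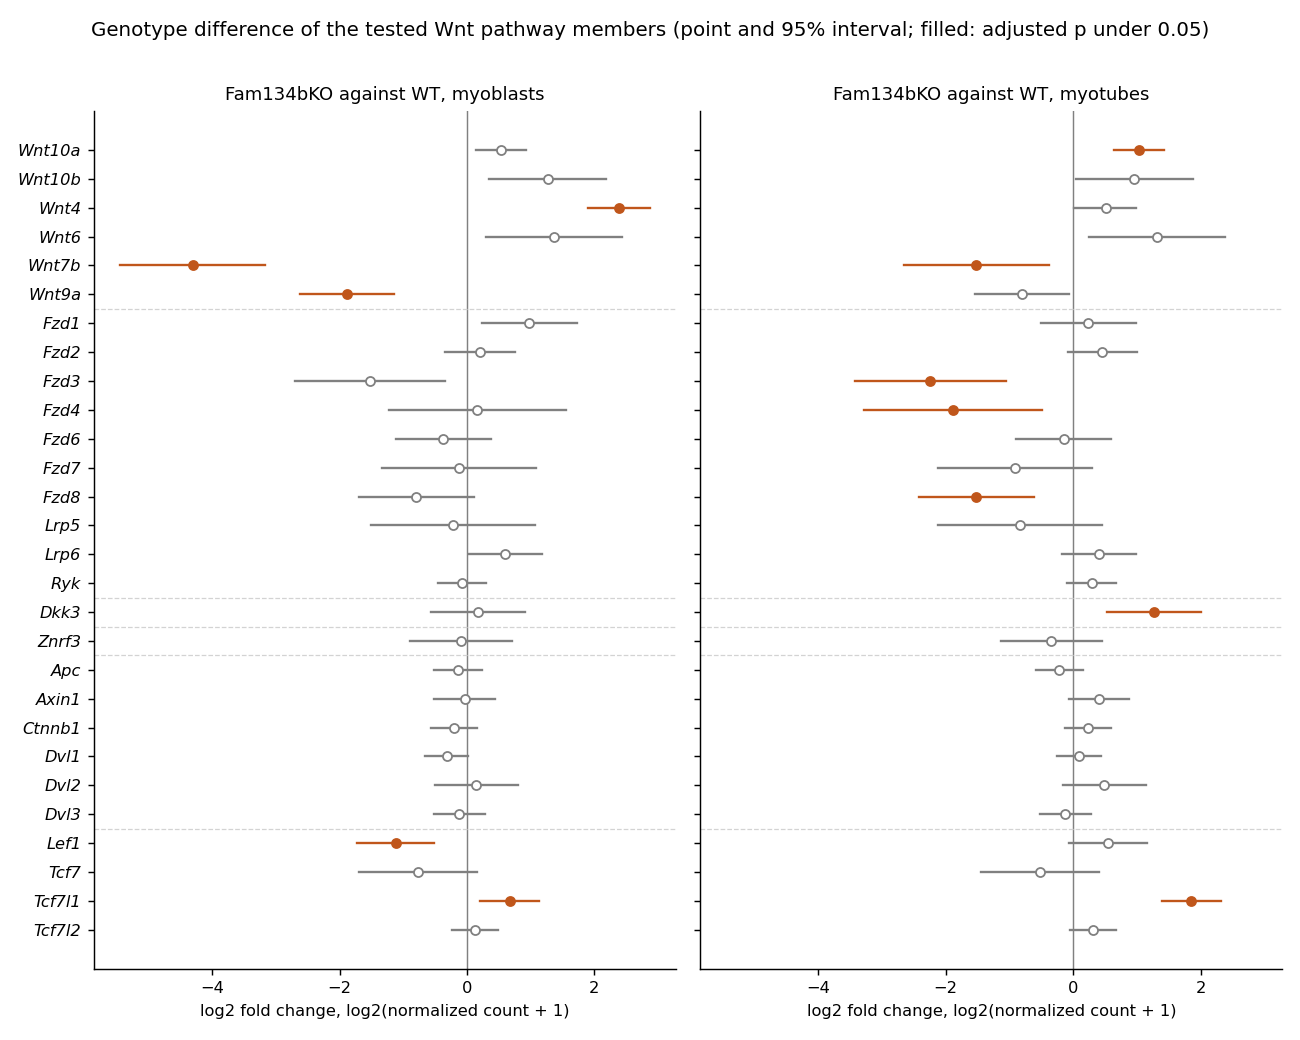
Log2 fold change of Fam134bKO against WT in myoblasts (left) and myotubes (right) for the 28 tested members, grouped by role from ligands at the top to nuclear factors at the bottom, on the log2(normalized count + 1) scale, with 95% intervals as lines and filled orange points at an adjusted p under 0.05. Wnt4 (2.38) and Wnt7b (-4.30) lie farthest from 0 in myoblasts, and Fzd3 (-2.25) and Fzd4 (-1.89) in myotubes, where Tcf7l1 (1.85) is the highest. Fzd8 passed the filter through WT myotubes alone.

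Below the filter, 19 members had reads, and 9 of them are described here, chosen after their values were seen. Dkk2, a secreted antagonist that binds Lrp6, had no read in WT myoblasts and 8, 3, 7 and 8 reads in WT myotubes, which is at least 2.0-fold higher against a floor of 3 reads per library. It had 0, 0, 1 and 0 reads in Fam134bKO myoblasts and 34, 11, 30 and 4 in Fam134bKO myotubes, a ratio of 111 with a 95% interval of 19.4 to 4460 that covers counting error only. Dkk2 thus had reads in all 8 myotube libraries and in 1 of 8 myoblast libraries. Sfrp2, a secreted Frizzled-like antagonist, had 1, 0, 0 and 0 reads in WT myoblasts, 6, 1, 4 and 3 in WT myotubes, 10, 6, 7 and 4 in Fam134bKO myoblasts and 34, 4, 19 and 11 in Fam134bKO myotubes. Its Fam134bKO myoblasts exceeded all WT myoblasts by a ratio of 24.4 (4.02 to 998). In the fit without the filter, the differences between myotubes were 2.19 ± 0.53 for Sfrp2 (limma adjusted p = 0.00721) and 1.55 ± 0.47 for Dkk2 (limma adjusted p = 0.0272). Sfrp4, of the same family as Sfrp2, had 11, 3, 2 and 6 reads in WT myotubes and 0 to 5 in all other libraries.

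Wnt5a, the ligand of the branch without beta-catenin, had 5, 2, 3 and 1 reads in WT myoblasts, 22, 10, 10 and 12 in WT myotubes, 1, 0, 0 and 1 in Fam134bKO myoblasts and 4, 0, 1 and 0 in Fam134bKO myotubes. Its WT myotubes were above every other library, the 2 shallow ones included. In a fit without the filter its difference in myotubes was -2.87 ± 0.52 (limma adjusted p = 6.52e-04). Its paralog Wnt5b stayed at 0 to 6 reads in each library. Ror2, a receptor of Wnt5a, had 4, 4, 2 and 3 reads in WT myotubes and none in the other 12 libraries. Ror1, the related receptor, had 8, 2, 3 and 2 reads in Fam134bKO myotubes, 1 in WT myotube replicate 1 and none elsewhere. With 2 to 4 reads in each WT myotube library, Ror2 was at the floor of 3 reads and no fold is given. In the fit without the filter, Ror1 was called higher and Ror2 lower in Fam134bKO myotubes, and both passed the interaction (limma adjusted p = 0.00764 and 9.63e-04), on groups that were mostly at 0.

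Axin2, a scaffold of the destruction complex and a common readout of beta-catenin activity, had 4, 3, 2 and 1 reads in WT myoblasts, 3, 1, 1 and 4 in WT myotubes, none in Fam134bKO myoblasts and 3 in 1 of the Fam134bKO myotube libraries. These counts lie at the floor and give no fold. The fit without the filter called Axin2 lower in Fam134bKO myoblasts (limma adjusted p = 0.0144), but on 1 to 4 reads against none. As no read allows up to 3 reads, this call is not read as a lower level. Fzd5 had 2, 2, 2 and 3 reads in WT myoblasts, 8, 6, 11 and 17 in WT myotubes, 8, 4, 8 and 3 in Fam134bKO myoblasts and 21, 2, 10 and 2 in Fam134bKO myotubes. Its WT stages did not overlap, with a change of 1.70 ± 0.54 in the fit without the filter (limma adjusted p = 0.0401). The 10 others below the filter, Fzd9, Rspo1, Rspo2, Rspo3, Sfrp5, Wif1, Wnt1, Wnt2, Wnt2b and Wnt3, had at most 10 reads in any library. Rspo2, an R-spondin, had 7, 7, 4 and 6 reads in Fam134bKO myoblasts and 3, 1, 1 and 1 in WT myoblasts.

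**Figure D4:**
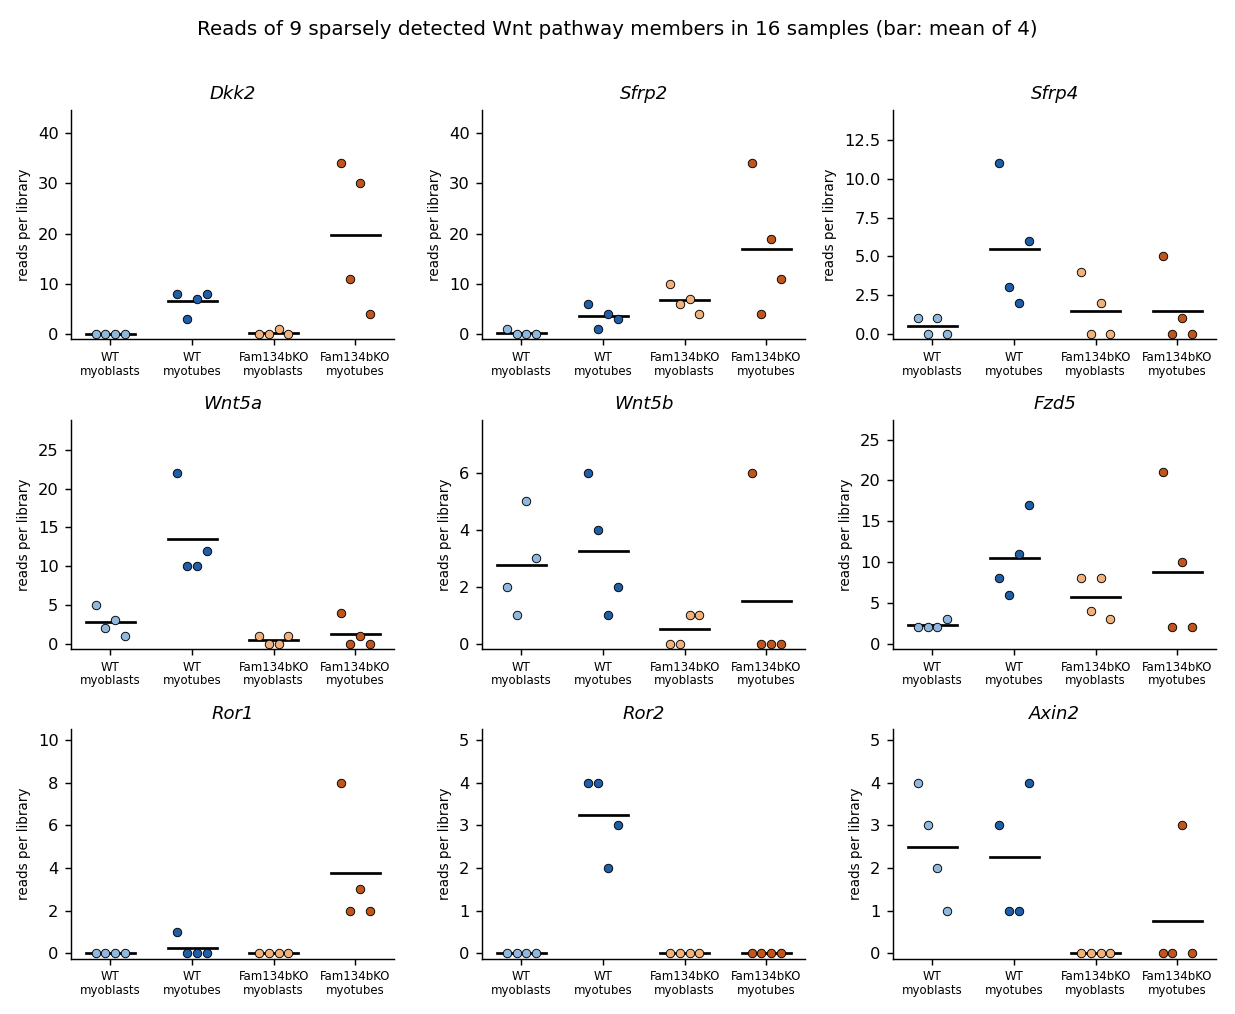
Reads per library (vertical axes, linear) of 9 members below the filter in the 16 samples, each point 1 library and each bar the mean of 4, with no correction for depth. Dkk2 has reads almost only in myotubes, Wnt5a and Ror2 are highest in WT myotubes (10 to 22 and 2 to 4 reads), and Axin2 has at most 4 reads.

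Genes of the pathway outside the family names, and a list of targets that includes a few members, gave the following counts. They are to be read beside 23.0% of all genes called in WT differentiation, 33.4% in Fam134bKO differentiation, 15.8% between myoblasts and 23.4% between myotubes. Of 12 genes for ligand secretion and extracellular binding, 8 were tested, of which 5 rose and none fell on differentiation of WT cells and 4 rose and none fell in Fam134bKO cells. Porcn, the acyltransferase that lipid-modifies Wnt proteins, went from 50.8 ± 5.34 to 154 ± 24.0 in WT cells (1.58 ± 0.25, adjusted p = 1.27e-04) and from 33.0 ± 13.3 to 109 ± 27.8 in Fam134bKO cells (1.75 ± 0.25, adjusted p = 1.80e-05). Between genotypes 3 of the 8 were lower in Fam134bKO myoblasts, with 1 higher and 1 lower in myotubes, where the proteoglycan gene Gpc1 differed by -0.85 ± 0.17 (adjusted p = 0.00104). The heparan sulfate proteoglycan genes Sdc1 and Sdc4 were lower in Fam134bKO myoblasts, by -0.75 ± 0.20 (adjusted p = 0.0104) and -1.02 ± 0.24 (adjusted p = 0.00421), and Gpc6 was higher in Fam134bKO myotubes (1.03 ± 0.35, adjusted p = 0.0372). Sdc1 also rose on differentiation, by 1.27 ± 0.20 in WT and 1.64 ± 0.20 in Fam134bKO cells. The called shares were 62.5%, 50%, 37.5% and 25% in the order of comparisons just given. The median change of the 8 was 0.89 in WT cells, beside -0.01 for all genes.

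Of 10 further co-receptors and membrane regulators, 6 were tested, with 1 higher and 3 lower in Fam134bKO myoblasts and 2 lower in Fam134bKO myotubes. Lgr4 and Lgr6, receptors of R-spondin, went opposite ways in myoblasts. Lgr4 had 23.6 ± 6.16 in WT and 80.7 ± 16.9 in Fam134bKO myoblasts (1.74 ± 0.40, adjusted p = 0.00354), and Lgr6 had 65.8 ± 22.7 and 5.32 ± 2.85 (-3.45 ± 0.43, adjusted p = 3.97e-06). Both also passed the interaction, at -2.11 ± 0.56 (adjusted p = 0.0407) and 2.41 ± 0.61 (adjusted p = 0.0307). Musk, the receptor kinase of the neuromuscular synapse, was lower in Fam134bKO cells by -2.11 ± 0.38 in myoblasts and -1.64 ± 0.38 in myotubes (adjusted p = 4.04e-04 and 0.00377). On differentiation 2 of the 6 rose in WT cells, and 3 rose and 1 fell in Fam134bKO cells. The WT risers were Tspan12, a partner of Fzd4 (1.41 ± 0.30, adjusted p = 0.00167), and Kremen1, a receptor of Dickkopf proteins (0.94 ± 0.28, adjusted p = 0.021). The called shares of these 6 genes were 33.3%, 66.7%, 66.7% and 33.3%.

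Of 9 extracellular antagonists outside the Sfrp, Dkk and Wif families, 2 were tested, and both were higher in all 4 pairwise comparisons. Igfbp4, a secreted binding protein of insulin-like growth factors that also inhibits Wnt receptors, had 237 ± 44.4, 617 ± 106, 547 ± 128 and 2562 ± 688 in WT myoblasts, WT myotubes, Fam134bKO myoblasts and Fam134bKO myotubes (2.03 ± 0.20 between genotypes in myotubes, adjusted p = 6.03e-07). Trabd2b, a membrane protease that inactivates Wnt ligands, had 7.28 ± 1.11, 41.0 ± 8.17, 46.1 ± 7.70 and 134 ± 13.1 (2.50 ± 0.23 in myoblasts, adjusted p = 3.42e-08). Neither passed the interaction.

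Of 22 genes of the destruction complex and its partners, 20 were tested, and 2 were higher and 1 lower in Fam134bKO cells at each stage. Nkd2, an inhibitor that binds Dishevelled, had the largest difference, with 1.17 ± 1.74 in WT and 39.6 ± 12.5 in Fam134bKO myoblasts (4.48 ± 0.45, adjusted p = 1.52e-07) and 9.75 ± 6.19 and 373 ± 71.7 in myotubes (5.27 ± 0.45, adjusted p = 6.24e-08). The Dishevelled-binding Dact3 was the other gene higher in Fam134bKO myoblasts (0.96 ± 0.23, adjusted p = 0.00435) and Btrc, of the ubiquitin ligase that marks beta-catenin, the other one in myotubes (0.70 ± 0.23, adjusted p = 0.0313). On differentiation 2 rose and 1 fell in WT cells, and 2 rose and 2 fell in Fam134bKO cells. The called shares, 15%, 20%, 15% and 15%, were below those of all genes in each comparison. Of 19 nuclear partners found in the table, 17 were tested. Of these, 2 were higher and none lower in Fam134bKO myoblasts, with 3 higher and 2 lower in myotubes. On differentiation 1 rose and 2 fell in WT and 1 rose and 3 fell in Fam134bKO cells. Bcl9l, a co-activator that binds beta-catenin, was higher in Fam134bKO cells by 0.62 ± 0.17 in myoblasts and 1.01 ± 0.17 in myotubes (adjusted p = 0.014 and 2.26e-04). The Groucho co-repressor genes split between genotypes, with Tle2 higher in myoblasts (1.44 ± 0.47, adjusted p = 0.04), Tle1 higher in myotubes (0.79 ± 0.21, adjusted p = 0.01) and Tle4 lower in myotubes (-1.20 ± 0.42, adjusted p = 0.0406). The called shares of the nuclear partners were 17.6%, 23.5%, 11.8% and 29.4%.

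Of 26 genes of planar polarity and Wnt calcium signalling, 20 were tested. None was higher and 5 were lower in Fam134bKO myoblasts, and 1 was higher and 3 were lower in Fam134bKO myotubes. Prickle1, a core polarity protein, had 49.3 ± 11.3 in WT and 9.14 ± 3.57 in Fam134bKO myoblasts (-2.35 ± 0.34, adjusted p = 2.40e-05) and 106 ± 10.8 and 20.7 ± 14.2 in myotubes (-2.48 ± 0.34, adjusted p = 2.10e-05). On differentiation 3 rose and 2 fell in WT cells, and 6 rose and none fell in Fam134bKO cells. The calcium-dependent kinase gene Camk2a rose by 3.17 ± 0.38 in WT cells and 3.72 ± 0.38 in Fam134bKO cells (adjusted p = 3.88e-06 and 1.99e-07). Daam2, a formin that binds Dishevelled, was the 1 gene of the list that passed the interaction (2.51 ± 0.45, adjusted p = 0.00191), with 45.1 ± 9.63, 37.1 ± 7.75, 9.37 ± 2.50 and 51.1 ± 23.8 in WT myoblasts, WT myotubes, Fam134bKO myoblasts and Fam134bKO myotubes. Nfatc1, a calcium-regulated transcription factor, was the 1 higher in Fam134bKO myotubes (1.44 ± 0.27, adjusted p = 5.68e-04). The called shares of this list were 25%, 30%, 25% and 20%.

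Of 32 textbook targets of beta-catenin and TCF found in the table, 19 were tested, the members Lef1, Tcf7 and Znrf3 among them. They did not move one way: 4 rose and 4 fell in WT cells, 7 rose and 4 fell in Fam134bKO cells, and Fam134bKO cells had 2 higher and 5 lower in myoblasts and 3 higher and 5 lower in myotubes. Ccnd1, the D-type cyclin of the G1 phase, fell from 1109 ± 112 to 304 ± 132 in WT cells (-1.94 ± 0.20, adjusted p = 3.36e-07). Fst, the myostatin antagonist follistatin, rose by 3.26 ± 0.48 in WT and 2.66 ± 0.48 in Fam134bKO cells (adjusted p = 5.24e-05 and 2.32e-04) and was lower in Fam134bKO myotubes by -2.44 ± 0.48 (adjusted p = 9.39e-04). Wisp2, a secreted CCN protein, was higher in Fam134bKO cells, with 2.32 ± 1.11 against 50.0 ± 20.4 in myoblasts (3.90 ± 0.40, adjusted p = 1.97e-07) and 8.29 ± 3.27 against 146 ± 60.5 in myotubes (3.99 ± 0.40, adjusted p = 6.06e-07). Id2, an inhibitor of myogenic factors, was lower in Fam134bKO myoblasts by -1.81 ± 0.33 (adjusted p = 3.86e-04). Ctgf was called lower in Fam134bKO myotubes by -1.86 ± 0.59 (adjusted p = 0.0256), at 2.35 ± 2.86 against 8.68 ± 5.72 in WT myotubes. Its Fam134bKO myotube values, 0 to 5.81, were near the floor of detection. The receptor gene Ephb3 was higher in Fam134bKO myoblasts (1.02 ± 0.25, adjusted p = 0.00709). The called shares were 42.1%, 57.9%, 36.8% and 42.1%. The median over these targets was -0.33 in myoblasts and -0.21 in myotubes between genotypes, beside -0.01 and -0.07 for all genes. Of 13 adherens junction genes, 8 were tested, and 1 was higher and 1 lower in Fam134bKO cells at each stage. Cdh15, the M-cadherin of muscle cells, was the lower one both times, by -2.08 ± 0.23 in myoblasts and -1.60 ± 0.23 in myotubes (adjusted p = 5.09e-07 and 3.11e-05). Cdh11 was the higher one in myoblasts (2.46 ± 0.45, adjusted p = 4.51e-04) and Ctnna1, alpha-catenin, in myotubes (0.59 ± 0.18, adjusted p = 0.0178). On differentiation 4 of the 8 rose in WT cells, and 4 rose and 1 fell in Fam134bKO cells, and the called shares were 50%, 62.5%, 25% and 25%. Of 4 YAP targets set beside these lists, 1 (Amotl2) fell on differentiation of Fam134bKO cells, 1 (Axl) was lower in Fam134bKO myoblasts and none was called in the other comparisons of stage or genotype.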

How the data were processed

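Total RNA of 16 C2C12 samples, 4 in each of 4 groups, was sequenced as single-end mRNA libraries. Reads were trimmed with bbduk and aligned to mm10 with STAR 2.6.0a, and genes were counted with HTSeq, as the methods and the submitters' processing notes give. The strand setting of the counting and the tool of normalization are not given in the sources used here. The authors deposited 1 table of log2 values, each the log2 of a normalized count plus 1, for 31053 genes, 74 of them without a symbol. Removing the log gave a whole multiple of 1 step per library for 100% of values above 0 (tolerance 0.1 of a step), and these multiples were taken as reads, 1484750 to 3287461 per library.

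Samples were grouped by their titles. The deposited log2 values of 10767 genes that reached a normalized count of 10 in 4 or more samples were fitted with limma 3.58.1 in R 4.3.3 (4 group means, eBayes with trend), giving 4 pairwise comparisons and their interaction. Called means a Benjamini-Hochberg adjusted p under 0.05 over all tested genes, two-sided. Fold changes are on the log2(normalized count + 1) scale, which understates changes of low genes. The scripts were tested on simulated data. Intervals of ratios are exact at 95%, and these and the floor of 3 reads cover counting error only.

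The members were all genes whose symbol matched the family names. Members called with a log2 fold change of 1 or more in size, or called in the interaction, were given in every sample, other called members by group means, and the rest by ranges. For the other pathway lists, the rule named up to 2 called genes of the largest change per direction and comparison, and the text gives a part of these, chosen after their values were seen. The members and lists were chosen with earlier results of these data known. Alternatives were other pseudocounts (0.5 and 5), minimum counts (none and 50), scalings, a fit of only the samples compared, sample weights, a replicate block and leaving out each library. Fits of recovered reads with voom and fits without the 2 shallowest libraries were added after seeing the data. Promoter sequences are from RefSeq on GRCm38.p6, and gene positions and exon overlaps from GENCODE M21.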

Additional observations from a re-analysis of the deposited data

Results flagged for a closer look

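A sample stood far from the other 3 of its group, by Dixon's ratio at the 95% level, in 7 of 112 groups of 4 samples of the tested members. Chance flags about 1 in 20 groups. The ratio is gap over range on the log2(normalized count + 1) scale, and the values printed beside it are normalized counts. Of the 7, 5 were in Fam134bKO myotubes. There Apc was low in replicate 2 (70.04 against 103 to 106, ratio 0.943), Fzd3 had no read in replicate 2 (9.99 to 12.6 in the others, ratio 0.919) and Fzd4 had none in replicate 4 (8.71 to 13.5, ratio 0.850), both shallow libraries. Replicate 1 was high for Fzd2 (656 against 368 to 382, ratio 0.936) and for Dvl1 (470 against 290 to 305, ratio 0.894). In WT myoblasts, Ctnnb1 was high in replicate 2 (1693 against 1167 to 1207, ratio 0.909) and Dvl2 was low in replicate 4 (95.4 against 111 to 112, ratio 0.958).

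The change on differentiation differed between the genotypes, by the interaction in limma's fit, for Wnt4 (-1.88), Wnt7b (2.79), Lef1 (1.67) and Tcf7l1 (1.19). Of these, the call of Wnt4 was kept whichever library was left out.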

How the results depend on the processing

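Of 33 called member results, Fzd8 counted here and below, 18 kept direction and call under every alternative, and of 107 not called, 85 stayed so. None reversed. Called members in WT differentiation (7) became 11 with no minimum count (Fzd1, Fzd4 and Wnt10a lost, and 7 below the filter gained), 4 at a minimum of 50, 11 with only the samples compared, 14 with sample weights and 1 to 9 with a library left out. The count was 1 without WT myotube replicate 1, 2 without WT myotube replicate 4, 3 without WT myoblast replicate 3 or 4, and 4 without WT myoblast replicate 1 or WT myotube replicate 3. In Fam134bKO differentiation (10) they became 6 at a minimum of 50. Between myoblasts (5) they became 8 with a pseudocount of 5, 2 at a minimum of 50, 10 with only the samples compared, 13 with sample weights and 8 with voom on recovered reads, and between myotubes (7) they became 2 at a minimum of 50. In the interaction (4) they became 2 at a minimum of 50 and 1 to 3 with a library left out (1 without WT myoblast replicate 1 or 2, WT myotube replicate 4 or Fam134bKO myoblast replicate 4). At a minimum of 50, 7694 genes were tested, and every called member that dropped out was one no longer tested. Of these genes, 2099, 2868, 1285, 1885 and 361 were called in WT differentiation, Fam134bKO differentiation, myoblasts, myotubes and the interaction. Over all genes, WT differentiation (2474) gave 4683 with sample weights and 1564 to 2949 with a library left out (1564 without WT myotube replicate 1). Myoblasts (1697) gave 2656 with only the samples compared and 3773 with sample weights, myotubes (2521) gave 1565 with only the samples compared, and the interaction (371) gave 1221 with sample weights and 231 to 521 with a library left out. The cause was not tested where no samples or genes were removed. Without the 2 shallowest libraries, the calls of Fzd4 between myotubes (-1.02), Ctnnb1 in Fam134bKO differentiation (0.51) and the interaction of Lef1 (1.49) were lost. Depth limits the 19 members below the filter.

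With the replicate number as a block, 6, 10, 5, 7 and 3 members and 2495, 3628, 1678, 2513 and 358 genes were called in WT differentiation, Fam134bKO differentiation, myoblasts, myotubes and the interaction. The calls of Fzd1 in WT differentiation and of Tcf7l1 in myoblasts and in the interaction were lost. No clear pairing of samples by number was seen, though 4 numbers per comparison are too few to exclude it. Correlations of same-numbered deviations ran from -0.223 to 0.369. In the 4 pairwise comparisons, 2, 1, 2 and 1 of 4 numbers correlated best with their own.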
